A study of Rattus norvegicus with 12 samples.

Results

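The proteasome is the barrel-shaped protease that degrades proteins tagged with ubiquitin, and 44 genes named for it were compared between aged and young rat cortex. They are the genes whose symbol in the array annotation runs from Psma to Psmg followed by a number, without Psmb8 and Psmb9, each gene standing with the brightest of its probe sets on average. All 44 passed the filter on low values, out of 13253 genes that passed in all, so the filter removed no member. Of the 44, 42 encode subunits, assembly chaperones or regulators, and 2, Psmc3ip and Psme3ip1, carry a similar symbol but encode partner proteins. RNA came from the parietal cortex of 6 aged rats, 21 to 23 months old by the labels, and of 6 young rats, 3 to 5 months old, with 1 Affymetrix array per rat. Levels are given as the deposited signal, on a linear scale on which every array has the same trimmed mean, and differences as log2, aged minus young. All were male Fischer 344 rats that carried an implanted wireless EEG and EMG emitter and had been trained in the Morris water maze, so both groups share surgery and training. The sample titles name parietal cortex and the tissue field names frontal cortex. Markers of cortical excitatory neurons were present on every array, among them Slc17a7, the vesicular glutamate transporter, at 4215 ± 404 in aged and 4556 ± 146 in young rats, and Tbr1, a cortical transcription factor, at 597 ± 139 and 599 ± 127 (SD, n = 6 each). These markers do not tell the parietal from the frontal cortex. The p-values measure the spread between rats.

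A proteasome is built from a hollow core and caps that sit on its ends. In the core, rings of alpha subunits gate the entry and rings of beta subunits hold the catalytic sites, whose active residue is a threonine. The cap recognises ubiquitin chains, removes them, and unfolds the protein with a ring of ATPases that threads it into the core. Other activators can take the place of the cap, and in cells exposed to interferon the catalytic beta subunits are replaced by the immunoproteasome forms. In neurons the proteasome also trims synaptic proteins and takes part in plasticity. A cortex sample mixes many cell types, and fewer cells of a type cannot be told apart from less RNA per cell.

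No proteasome gene differed between aged and young cortex at an adjusted p under 0.05 (limma with Benjamini-Hochberg adjustment over 13253 genes), where 0.0528% of all genes tested did. The smallest adjusted p among the 44 was 0.525. Mean differences were small, from -0.21 for Psmc3ip to 0.25 for Psmd1 on the log2 scale, aged minus young. At an unadjusted p up to 0.05, 0 members were higher in aged rats, against 6.49% of all genes tested, and 2 were lower, Psmd11 and Psmd5, against 2.62%. Over both directions these are 2 members, against 9.11% of all genes tested. At an unadjusted p up to 0.01 there were 0 members, against 2.52% of all genes tested. In 0 members did all aged rats lie above or below all young rats, against 0.536% of genes tested above and 0.241% below.

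The means of 18 members were higher and those of 26 lower in aged rats, with a median log2 difference of -0.036, against a median of 0.024 over all genes tested. Signal strength matters to this comparison, since 29 of the 44 lie among the 3314 genes tested with the highest mean signal. Over those 3314 the median was -0.018, and 40.9% of genes had the higher mean in aged rats, as did 40.9% of the members. The direction turned without aged rat 6 but not without both aged rats 2 and 6, and its extent moved with the scaling. Without aged rat 6, 25 members were higher and 19 lower with a median of 0.017, and with each array centred on its median signal, which lowered all estimates by the same amount and the median of all genes tested to -0.047, 4 were higher and 40 lower with a median of -0.11. Quantile normalization gave 20 higher and 24 lower, with a median of -0.017. In the core 3 of 14 genes were higher in aged rats, 0 with centring and 5 with quantile normalization. In the cap 6 of 17 were higher, 1 with centring and 6 with quantile normalization. Within the lower series of the submitters' sample codes (4 aged and 3 young rats) the median was 0.015, and within the higher series (2 aged and 3 young rats) it was -0.092.

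On the deposited scaling, how small a difference these arrays leave room for can be read from the 95% interval of each log2 difference. In 32 of the 44 members (72.7%) the whole interval lay within a 1.2-fold change in either direction, against 32.3% of all genes tested and 65.8% of the 3314 brightest. In 43 members (97.7%) it lay within a 1.5-fold change, against 72.5% of all genes tested and 97.2% of the 3314 brightest. The exception among the members was Psmc3ip. These counts hold for the deposited scaling only. With arrays centred on their median signal every estimate lay lower, with a median over the members of -0.11 in place of -0.036. The counts of intervals within either bound are not given for that scaling. The median half-width of the interval was 0.16 on the log2 scale, against 0.24 over all genes tested. The SD within groups had a median of 0.12 for the members and of 0.20 for all genes tested, and was also 0.12 for the 3314 brightest. The highest of the 12 rats was less than 2-fold above the lowest in 43 members, and only 1.14-fold above it in Psmd7, the lid subunit that pairs with the deubiquitinating enzyme Psmd14.

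**Figure D1:**
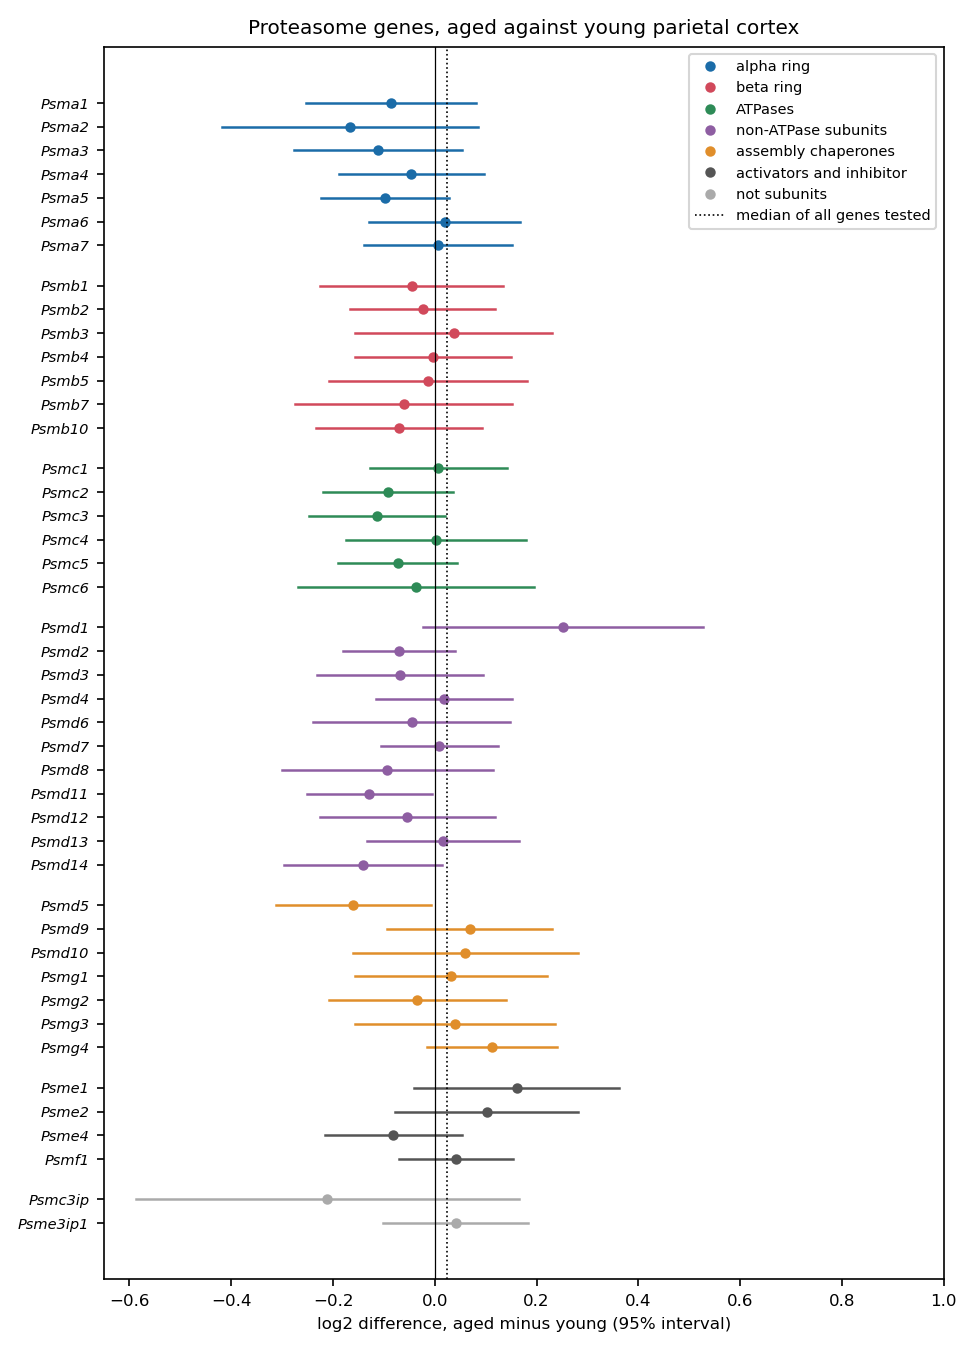
log2 difference between aged and young rats (x axis, aged minus young, 6 rats a group) of each of the 44 genes (y axis), coloured by role, with points at the estimates and bars for the 95% intervals from limma. The solid line marks 0 and the dotted line the median of all genes tested, 0.024, and the bars of Psmd11 and Psmd5 alone do not reach 0.

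In the alpha ring, which gates the entry to the core, 2 of 7 genes had the higher mean and 5 the lower mean in aged rats, with a median log2 difference of -0.086 and none past the test. Psma5 had signals of 2288 to 2790 (median 2577) in aged rats, against 2630 to 2866 (median 2792) in young rats. In 4 aged rats it lay below all young rats, and the other 2 were within the young range. Its log2 difference was -0.097 (standard error 0.058, adjusted p = 0.650 from limma). Psma3 had 1524 to 1898 (median 1879) in aged rats, against 1741 to 2101 (median 1880) in young rats. The medians were nearly the same, and 2 aged rats, 2 and 6, lay below the young range, which gave a log2 difference of -0.11 (standard error 0.075, adjusted p = 0.685 from limma). The ring's widest spread was in Psma2, with a 95% interval from -0.42 to 0.085, while Psma1 and Psma4 had -0.086 and -0.046, and Psma6 and Psma7 lay nearest to 0 at 0.020 and 0.0056. Without aged rat 6 the ring's median was -0.031.

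In the beta ring, 1 of 7 genes had the higher mean and 6 the lower mean in aged rats, with differences from -0.071 to 0.037 and a median of -0.024. Psmb5, whose product cuts after hydrophobic residues and is the main target of proteasome inhibitor drugs, had 3456 to 4797 (median 4269) in aged rats, against 3804 to 4746 (median 4213) in young rats. The young range lay inside the aged range, and the log2 difference was -0.013 with a 95% interval from -0.21 to 0.18. Psmb7, the trypsin-like subunit, had 2915 to 4373 (median 3933) in aged rats, against 3554 to 4374 (median 3965) in young rats, a log2 difference of -0.061 with an interval from -0.27 to 0.15. Aged rat 6 alone lay below the young range, and without it Psmb7 had 0.016. Psmb6, the other constitutive catalytic subunit, shares its only probe set with a second symbol, so no value is given under its name. The structural subunits, which carry no active site, had -0.045 (Psmb1), -0.024 (Psmb2), 0.037 (Psmb3) and -0.0043 (Psmb4). In each of these the young range lay inside the aged range, with aged rat 6 lowest. Without aged rat 6 the median of the ring was 0.020, and 6 of the 7 genes had the higher mean in aged rats.

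The immunoproteasome forms had estimates of both signs. Psmb10, the interferon-induced form of the Psmb7 position, is a member and had 413 to 524 (median 476) in aged rats, against 474 to 580 (median 489) in young rats. In 3 aged rats it lay below the young range, and its log2 difference was -0.071 (standard error 0.074, adjusted p = 0.833 from limma). Psmb8 and Psmb9, the other interferon-induced catalytic forms, had positive estimates of 0.39 (standard error 0.23, adjusted p = 0.644 from limma) and 0.30 (standard error 0.13, adjusted p = 0.530). Psmb8 had 71.9 to 233 (median 103) in aged rats, against 77.3 to 98.8 (median 87.2) in young rats, with aged rat 6 at the top. Psmb9 had 96.2 to 142 (median 107) in aged rats, against 75.5 to 130 (median 86.2) in young rats. The difference between Psmb10 and these genes was not tested.

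In the ring of ATPases at the base of the cap, 2 of 6 genes had the higher mean and 4 the lower mean in aged rats, with a median log2 difference of -0.055. Psmc3 had 2488 to 2683 (median 2594) in aged rats, against 2479 to 3084 (median 2802) in young rats. All 6 aged rats lay within the young range, in its lower part, and the log2 difference was -0.11 (standard error 0.061, adjusted p = 0.601 from limma). Psmc2 had 4875 to 5909 (median 5760) in aged rats, against 5673 to 6194 (median 5896) in young rats, with aged rats 5 and 6 below the young range (log2 difference -0.092, standard error 0.059, adjusted p = 0.673). Psmc1 and Psmc4 were nearest to 0, at 0.0066 and 0.0020, and Psmc5 had -0.073. Psmc6 was read by 3 probe sets, all above the cutoff on 12 arrays, which gave -0.037, -0.032 and -0.046.

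Among the 11 non-ATPase subunits of base and lid, 4 had the higher mean and 7 the lower mean in aged rats, with a median of -0.054, and both the largest positive and 1 of the 2 smallest p-values of all members belong here. Psmd11, a scaffold subunit of the lid, had 3180 to 3942 (median 3703) in aged rats, against 3805 to 4112 (median 4028) in young rats. In 4 aged rats it lay below every young rat, and aged rat 2, at 3180, lay far below the other 5. Its log2 difference was -0.13 (standard error 0.056, unadjusted p = 0.0425, adjusted p = 0.529 from limma), and without aged rat 2 it was -0.088 (unadjusted p = 0.0702 from limma). A second bright probe set of the gene went the other way, at 0.052 with an interval from -0.091 to 0.19, when all 28193 probe sets were tested one by one, and a dim one gave -0.83 with an interval from -1.85 to 0.19. In that test the first had -0.13 with an unadjusted p = 0.0588 from limma.

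Psmd1, a large scaffold subunit of the base, had the largest positive estimate. It had 744 to 1005 (median 877) in aged rats, against 606 to 1043 (median 698) in young rats, and young rat 4 held the highest value of all 12. All aged rats lay within the young range but above its median, with a log2 difference of 0.25 (standard error 0.13, unadjusted p = 0.0697, adjusted p = 0.578 from limma). Without young rat 4 the estimate was 0.35 (unadjusted p = 0.00317, adjusted p = 0.340 from limma). That rat is singled out for its high value, which goes against the difference, so leaving it out raises the estimate by construction. Psmd14, the enzyme of the lid that cuts the ubiquitin chain off, had -0.14 with an interval from -0.30 to 0.015, and its other probe sets gave -0.060 and -0.050.

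The other subunits of base and lid had estimates from -0.093 to 0.018. Psmd8, a lid subunit, had 1191 to 1836 in aged rats, against 1586 to 1751 in young rats, and Psmd6, another, had 2975 to 4386 in aged rats, against 3770 to 4198 in young rats. In both the young range lay inside the aged one, with aged rat 6 lowest and aged rat 2 highest, and the log2 differences were -0.093 and -0.046. Psmd2 and Psmd3 had -0.070 and -0.068, and Psmd12 had -0.054. Psmd4, a receptor for ubiquitin chains, had 1484 to 1823 in aged rats, against 1524 to 1802 in young rats (log2 difference 0.018), and Psmd13 and Psmd7 had 0.017 and 0.0088. Another probe set of Psmd7, above the cutoff on 12 arrays, gave -0.072 with an interval from -0.24 to 0.096. Its signals were 1006 to 1272 in aged and 1107 to 1326 in young rats.

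Of the 7 assembly chaperones, which help the rings and the base to form and leave before the proteasome works, 5 had the higher mean and 2 the lower mean in aged rats, with a median of 0.040. With arrays centred on their median signal this median was -0.030, and it was 0.076 and -0.085 within the lower and higher code series. Psmd5, a chaperone of the base in spite of its subunit name, had 735 to 945 (median 834) in aged rats, against 844 to 1027 (median 943) in young rats. In 4 aged rats it lay below every young rat, with aged rat 6 lowest, and the log2 difference was -0.16 (standard error 0.070, unadjusted p = 0.0404, adjusted p = 0.525 from limma). Within the lower code series it was -0.073 and within the higher one -0.28. Psmg4, a chaperone of the alpha ring, had 1069 to 1257 (median 1163) in aged rats, against 992 to 1165 (median 1069) in young rats. In 3 aged rats it lay above every young rat, with a log2 difference of 0.11 (standard error 0.058, adjusted p = 0.595 from limma). Psmd9 and Psmd10, the other chaperones of the base among the members, had 0.069 and 0.060, so within this role the estimates differ in sign. Centring put 6 of the 7 below 0. Psmg1 and Psmg2, which work as a pair on the alpha ring, had 0.032 and -0.035, and Psmg3, the partner of Psmg4, had 0.040.

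The promoters of Psmd1, Psmd5 and Psmd11 are printed because these members had the largest positive estimate and the 2 smallest p-values. The 250 bases before the start of each gene come from RefSeq on GRCr8, chr9:94157721-94157970 on the plus strand, chr3:38548491-38548740 on the minus strand and chr10:65932093-65932342 on the plus strand, written 5′ to 3′ along the gene. Capitals mark matches, on either strand, to 4 sequences, TGACNNNGC (the element bound by the Nrf factors), CCAAT (the box of NF-Y), GGGCGG (the GC box of Sp factors) and CCGGAAG (the element of ETS factors).
Psmd1: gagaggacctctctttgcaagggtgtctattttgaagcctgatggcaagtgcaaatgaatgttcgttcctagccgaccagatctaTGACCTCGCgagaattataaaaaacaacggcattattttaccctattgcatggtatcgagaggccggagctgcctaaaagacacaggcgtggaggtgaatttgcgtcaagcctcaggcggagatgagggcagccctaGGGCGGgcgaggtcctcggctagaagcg
Psmd5: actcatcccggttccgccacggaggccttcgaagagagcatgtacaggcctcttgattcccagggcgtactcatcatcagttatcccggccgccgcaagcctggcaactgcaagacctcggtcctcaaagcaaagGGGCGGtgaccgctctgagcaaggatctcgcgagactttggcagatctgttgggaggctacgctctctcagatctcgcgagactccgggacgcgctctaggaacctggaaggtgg
Psmd11: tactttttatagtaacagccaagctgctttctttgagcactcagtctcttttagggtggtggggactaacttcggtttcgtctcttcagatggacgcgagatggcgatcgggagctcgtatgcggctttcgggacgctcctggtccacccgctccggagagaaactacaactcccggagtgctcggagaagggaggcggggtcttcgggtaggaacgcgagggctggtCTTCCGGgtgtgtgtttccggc
Psmd1 held an Nrf element and a GC box, Psmd5 a GC box, and Psmd11 an ETS element, so none of the 4 sequences was common to them. A match says only that the letters are there.

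The activators bind the ends of the core as the cap does, and the inhibitor binds the core too. Of the 4 with a value, 3 had the higher mean in aged rats and 1 the lower mean, with a median of 0.072. This median was 0.0012 with arrays centred on their median, and 0.12 and -0.026 within the lower and higher code series. Psme1, the alpha chain of the interferon-induced activator PA28, had 827 to 1050 (median 877) in aged rats, against 689 to 957 (median 766) in young rats. Young rats 3 and 4 lay among the aged rats, and the other 4 young rats lay below all aged rats. The log2 difference was 0.16 (standard error 0.092, adjusted p = 0.638 from limma). Psme2, the beta chain of the same activator, had 580 to 764 (median 682) in aged rats, against 576 to 726 (median 624) in young rats, a log2 difference of 0.10 (standard error 0.082, adjusted p = 0.747 from limma). In both chains aged rat 3 was highest of all 12 rats.

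Psme4, which encodes the large activator PA200, had 490 to 598 (median 552) in aged rats, against 551 to 633 (median 579) in young rats, a log2 difference of -0.082 (standard error 0.062, adjusted p = 0.723 from limma). In 3 aged rats it lay below the young range, and its other probe sets gave -0.038 and -0.051. Psmf1, the proteasome inhibitor PI31, had 851 to 960 (median 920) in aged rats, against 813 to 941 (median 889) in young rats, a log2 difference of 0.042 (standard error 0.051, adjusted p = 0.859 from limma) that was -0.029 with arrays centred on their median. Psme3, the nuclear activator, is read by 4 probe sets that each carry 3 symbols, so no value is given under its name. A second probe set of Psme1 was above the cutoff on 4 arrays only, at 24.9 ± 24.1 in aged and 9.12 in young rats on average, and its estimate of 1.35 had an interval from -0.18 to 2.87.

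**Figure D2:**
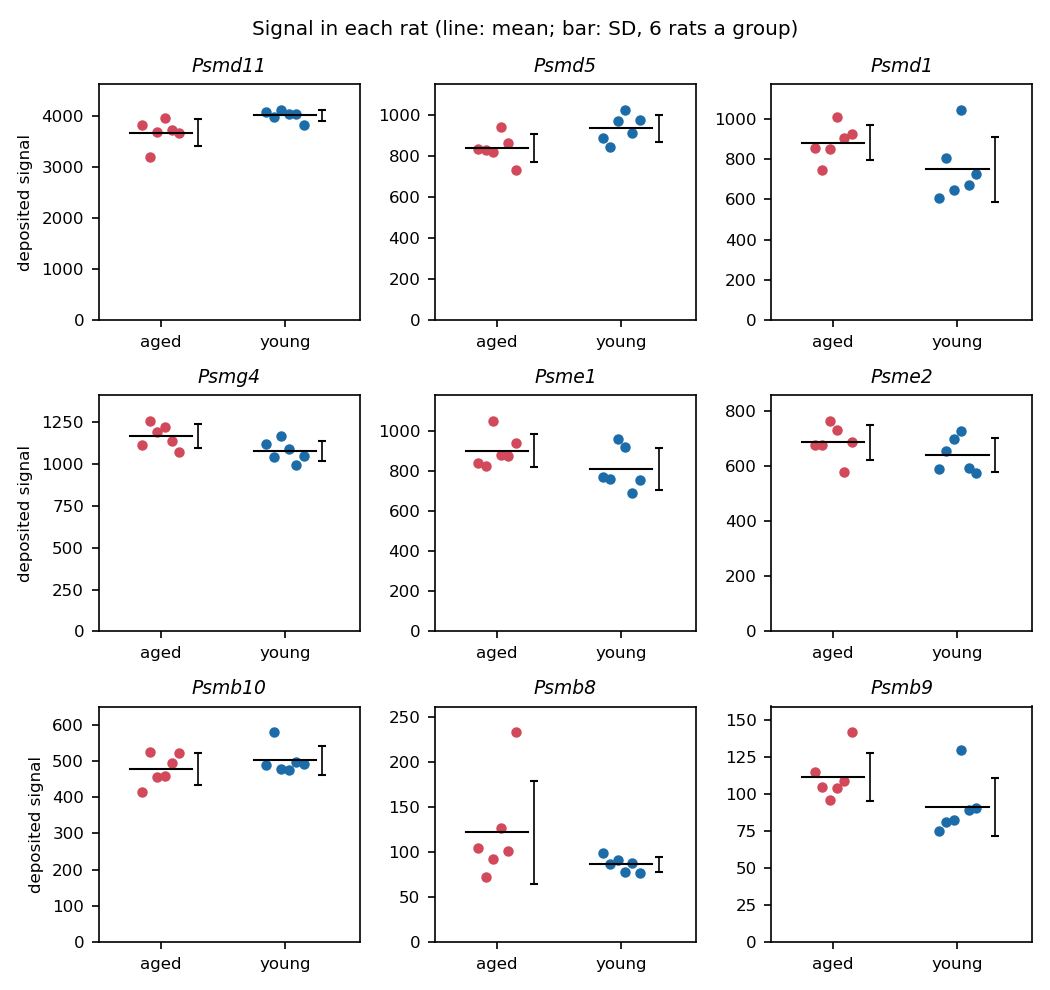
Deposited signal (y axis, starting at 0) of 9 genes in the 6 aged and 6 young rats, 1 point per rat, with a line at each group mean and a bar for the SD. The groups overlap in every panel, and aged rat 6, at 233, stands above the other aged rats in Psmb8, which is shown beside the members with Psmb9.

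Psmc3ip and Psme3ip1 match the name pattern without being subunits. Psmc3ip, which in mice works in meiotic recombination, had 120 to 257 (median 147) in aged rats, against 155 to 210 (median 182) in young rats. In 4 aged rats it lay below every young rat and in aged rat 6 above every young rat. Its log2 difference was -0.21 with an interval from -0.59 to 0.16, the widest of the members. Psme3ip1, a partner of the activator Psme3, had 888 to 1092 (median 989) in aged rats, against 916 to 1008 (median 961) in young rats, a log2 difference of 0.041 (standard error 0.065, adjusted p = 0.897 from limma), or -0.029 with arrays centred on their median.

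Aged rat 6 had low values in most proteasome genes. It held the lowest value of all 12 rats in 25 of the 44 members (56.8%), against 14.8% of all genes tested, and lay below the gene's mean in 37 of 44 (84.1%), against 41.0% of all genes tested. Its median deviation from the gene means was -0.16 over the members and 0.068 over all genes tested, on the log2 scale. Low values in this rat were not particular to the members. In 32 other genes of the ubiquitin and proteasome pathway it was lowest in 14 (43.8%), with a median deviation of -0.13. Among 11 neuronal markers it was lowest in 5 (45.5%). The share among genes of like signal strength is not given here. Among the members the low values were most frequent in the core, where aged rat 6 was lowest in 12 of 14 genes, against 8 of 17 in the cap and 0 of 4 activators and inhibitor. Its median deviation was -0.28 in the beta ring, -0.23 in the alpha ring, -0.095 in the ATPases and -0.011 in the activators and inhibitor. The array of aged rat 6 had the highest median signal of the 12, 194, against 168 to 177 in the other aged rats. Signal strength also differed between roles. Mean signals in aged rats were 1630 to 5169 in the core without Psmb10, and 549 to 914 in activators and inhibitor. Assembly chaperones, at 363 to 1184, were lowest in aged rat 6 in 4 of 7 genes. The differences between these roles, and the part of signal strength in them, were not tested.

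Aged rat 2 went the other way in the core and differed between genes of the cap. It held the highest value in 16 of the 44 members (36.4%), against 17.5% of all genes tested, with a median deviation of 0.19 in the beta ring and 0.13 in the alpha ring. In the same rat 5 members (11.4%), Psmc3ip, Psmc6, Psmd11, Psmd12 and Psme4, were at their lowest of all 12, against 13.6% of all genes tested. Without aged rats 2 and 6, a pair picked once their values were known, 19 members were higher and 25 lower in aged rats, with a median of -0.017. The young rats had median deviations from -0.027 to 0.063 over the members, and the other 4 aged rats from -0.034 to 0.040.

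Of the marker lists of cell types, some set aged rat 6 apart and others did not. The summed signal of 10 microglial markers was 10492 in aged rat 6. It was 5322 to 6569 in the remaining aged rats and 4689 to 6395 in young rats, and 9 of the 10 had the higher mean in aged rats. The summed signal of 4 markers of cortical excitatory neurons was 6295 in aged rat 6. It was 6735 to 8440 in the remaining aged rats and 7269 to 8001 in young rats, with 1 higher and 3 lower in aged rats. Over 11 neuronal markers aged rat 6 had a median deviation of -0.16, the same as over the proteasome genes, and aged rat 2 had 0.097. Of these 11, 2 were higher and 9 lower in aged rats. Their summed signal was 58575 in aged rat 6, 58048 to 64684 in the remaining aged rats and 59207 to 72522 in young rats. Markers of endothelium and astrocytes were also highest in aged rat 6. The 5 endothelial markers summed to 4644 in it, to 3541 to 3927 in the remaining aged rats and to 2749 to 3775 in young rats, and 5 of 5 were higher in aged rats. The 6 astrocyte markers summed to 42038 in it, to 33090 to 38580 in the remaining aged rats and to 31561 to 40124 in young rats, with 4 higher and 2 lower in aged rats. The 7 oligodendrocyte markers were all higher in aged rats, with a median difference of 0.24, and aged rat 6, at 45264, lay within the 33338 to 53339 of the remaining aged rats, where aged rat 2 was lowest. The 2 blood markers were higher in aged rats and summed to 5931 in aged rat 6, to 6322 to 9545 in the remaining aged rats and to 4946 to 9293 in young rats. Choroid plexus markers were low, with summed signals of 170 to 721 in aged and 164 to 1498 in young rats, and Kl above the cutoff on 3 arrays only. None of these markers was listed at 0, and their part in the proteasome values was not tested.

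**Figure D3:**
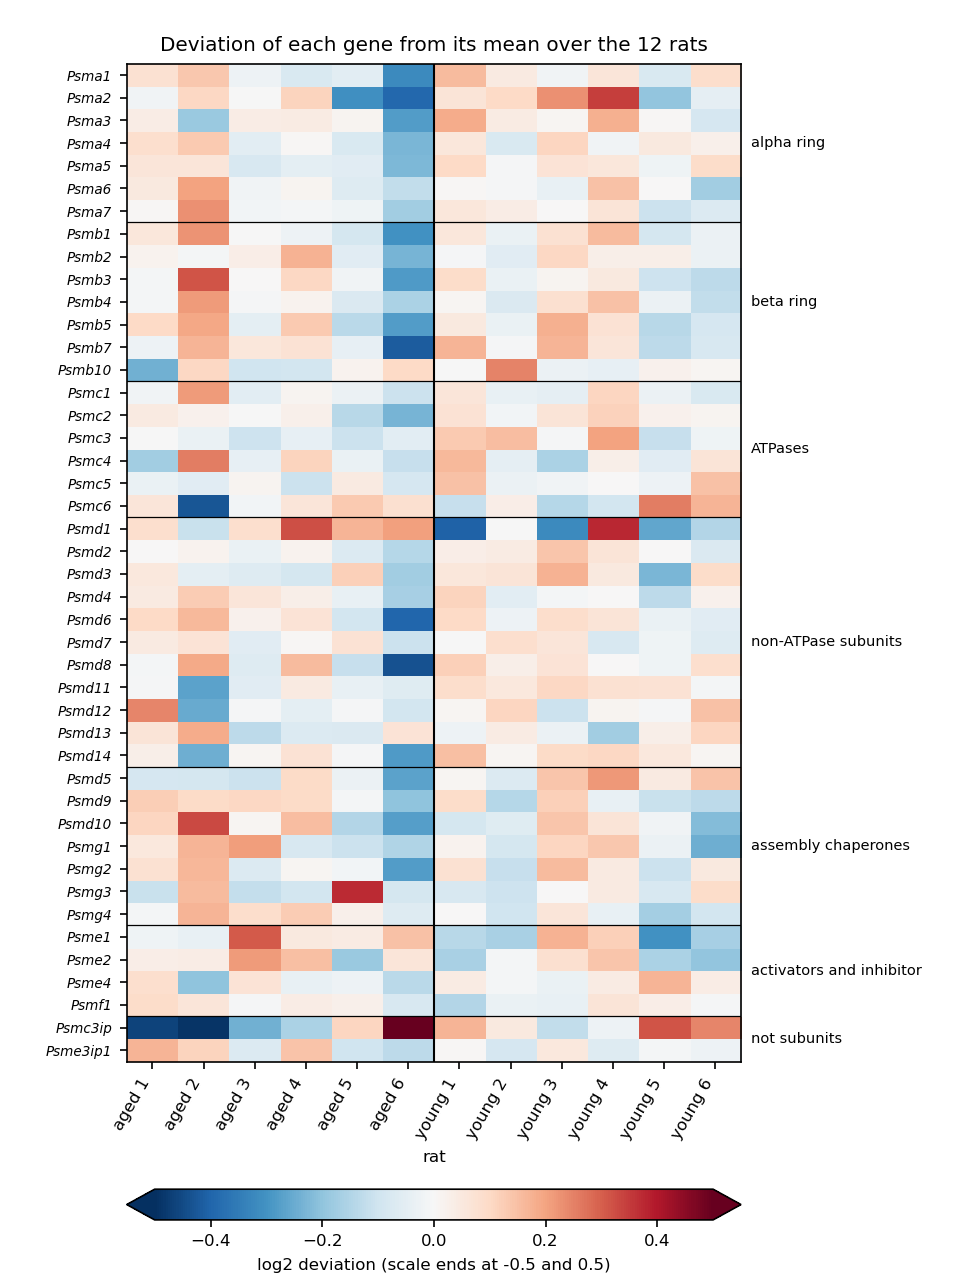
Deviation of each of the 44 genes (rows, grouped by role) from its mean over the 12 rats (columns, aged left of young), as log2, blue for lower and red for higher, with the colour scale ending at 0.5 in both directions. The column of aged rat 6 is blue in 37 rows, and the column of aged rat 2 is red in most rows of the core.

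Among other genes of the ubiquitin and proteasome pathway none passed the test either. Of 38 listed genes 32 were tested, 13 with the higher and 19 with the lower mean in aged rats, and 0 passed the test (0 at an unadjusted p up to 0.05). Their median log2 difference was -0.030, beside -0.036 for the members. Bag6, a chaperone that hands misplaced proteins to the proteasome, had the smallest p, with 658 to 774 (median 700) in aged rats, against 658 to 912 (median 810) in young rats. Its log2 difference was -0.17 (standard error 0.078, unadjusted p = 0.0541, adjusted p = 0.556 from limma). Txnl1, a thioredoxin-like protein of the cap, had -0.097 (adjusted p = 0.639 from limma), Ufd1, a cofactor of the unfoldase Vcp, 0.12 (adjusted p = 0.681), and Midn, which carries proteins to the proteasome without ubiquitin, -0.18 (adjusted p = 0.684). With the mean of each gene's probe sets the estimates were nearer to 0 for Bag6 (-0.037), Txnl1 (-0.034) and Ufd1 (0.064). Midn stayed at -0.18. Adrm1 and Sem1, cap subunits outside the name pattern, had 0.084 and -0.021, and Pomp, the maturation factor of the core, had -0.030.

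Nfe2l1, the factor that raises proteasome genes together when proteasome activity is low, had a log2 difference of 0.12 (adjusted p = 0.772 from limma), and its relative Nfe2l2 had 0.10 (adjusted p = 0.739). Ddi2, the protease that activates Nfe2l1, had 0.065, and Ngly1, which removes its sugars, had 0.038, and none of the 4 passed the test. The Nrf element TGACNNNGC, searched on both strands in the 250 bases before the start, occurred in 6 of the 40 members with a promoter in the table (15%), against 10.1% of all 33469 promoters and 12.3% of those of genes tested. The windows with up to 20 bases on each side are printed because this element is the one through which Nfe2l1 acts, with the match in capitals, 5′ to 3′ along the gene, Psmd9 having a pair of them.
Psma3: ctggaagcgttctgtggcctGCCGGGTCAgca
Psmb2: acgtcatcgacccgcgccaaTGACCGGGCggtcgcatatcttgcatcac
Psmb5: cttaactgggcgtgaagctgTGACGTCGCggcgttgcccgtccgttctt
Psmd1: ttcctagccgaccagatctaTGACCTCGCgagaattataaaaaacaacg
Psmd9: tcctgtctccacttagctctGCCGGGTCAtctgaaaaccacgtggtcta
Psmd9: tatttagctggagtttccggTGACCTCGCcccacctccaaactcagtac
Psme4: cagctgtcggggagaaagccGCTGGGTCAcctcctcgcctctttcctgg
In RefSeq on GRCr8 these lie, in the same order, at chr6:95219717-95219748, chr5:144254970-144255018, chr15:32047411-32047459, chr9:94157786-94157834, chr12:39018360-39018408, chr12:39018313-39018361 and chr14:108706568-108706616, with Psmb5 and Psmd9 on the minus strand and the others on the plus strand. The match of Psmb2 overlaps a CCAAT box and a GC box. The 6 genes did not share a direction, as Psmd1 and Psmd9 had the higher mean in aged rats and Psma3, Psmb2, Psmb5 and Psme4 the lower mean, with a median of -0.018.

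The other sequences were also found in members with estimates of either sign. A GC box was found in 28 of 40 promoters (70%), against 56.2% of those of genes tested and 30.5% of all promoters, with 11 of the 28 higher and 17 lower in aged rats. A CCAAT box was found in 20 (50%), against 35.3% and 34%, with 10 higher and 10 lower. An ETS element was found in 12 (30%), against 13.6% and 7.27%, with 6 higher and 6 lower. The 40 genes lie on 17 chromosomes.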

How the data were processed

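One signal intensity per probe set and array was deposited for 12 rats by the authors, on a linear scale with the mean of each array, trimmed by 2% at each end, near 500.1. The methods name gcRMA as the algorithm of the deposited signal. R 2.7.1, GCRMA and MAS5 appear in the submitters' processing notes, and the step that gave all arrays this common linear scale is not given in the sources used here. Values were set to log2 with no further normalization. Symbols come from the platform annotation, updated by gene ID (20764 probe sets found). Of 31099 probe sets, 20832 carry 1 symbol, 436 several and 9831 none, and only the first were used, leaving 14218 genes. Genes above 4.3 on the log2 scale (a signal of 19.7) on at least 3 arrays were tested. The cutoff is that of the methods, taken as a log2 value. Median signals were 168 to 194 in aged and 162 to 172 in young rats. Precision is limited by how few arrays each group has.

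Aged and young rats were compared with limma 3.58.1 (lmFit and eBayes, two-sided) in R 4.3.3, and p-values were adjusted by Benjamini-Hochberg over the 13253 genes. Rats are separate animals. The steps were tested on simulated data. Members and lists were chosen with earlier results of these data known. Named are members with an unadjusted p up to 0.05, the 2 with the smallest p in each role, the catalytic subunits, all activators, and the 4 pathway genes with the smallest p. Other members are named for their role or probe sets. Promoters were matched by symbol for 40 of 44 members. Psma7, Psmd6, Psmd12 and Psmd14 had none. Alternatives were no filter and a stricter one, quantile normalization, median centring, a pseudocount of 16, the mean of probe sets, limma with trend and robust variances or array weights, the methods' t-test, the subject number or code series as a block, either series by itself, and the omission of each rat in turn. Figures used Python 3.11.15 and matplotlib 3.10.9.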

Additional observations from a re-analysis of the deposited data

Results flagged for a closer look

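In 7 of 46 groups of 6 rats tested, 1 rat stood far from the other 5 (Dixon's test at its 95% critical value, on the gap as a share of the group's range), and chance alone gives about 1 in 20. Among aged rats, aged rat 2 was lowest in Psmd11 with a signal of 3180, against 3668 to 3942 in the others. In Psmb8, aged rat 6 was highest with 233, against 71.9 to 127 in the remaining aged rats. In Ufd1, aged rat 2 was highest with 2075, against 1494 to 1680. Among young rats, young rat 5 was highest in Psme4 with 633, against 551 to 580, and young rat 2 was highest in Psmb10 with 580, against 474 to 496. Young rat 4 was highest in Psmb9 with 130, against 75.5 to 90.4 in the other young rats, and young rat 3 was highest in Ufd1 with 1702, against 1482 to 1529.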

How the results depend on the processing

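The count of proteasome genes at an adjusted p under 0.05 was 0 under all alternatives run, with a smallest adjusted p of 0.340 without young rat 4. The number lower in aged rats at an unadjusted p up to 0.05, 2 as reported, was 5 with median centring, 3 with trend and robust variances and with the subject number as a replicate block, 1 with quantile normalization, with log2(signal + 16), with the mean of probe sets, within the lower series, with a block for the code series and without aged rats 2 and 6, and 0 with array weights and within the higher series, and 0 to 3 with 1 rat left out. The number higher, 0 as reported, was 1 with the mean of probe sets, with trend and robust variances and with the methods' t-test. It was also 1 with the subject number or the code series as a block. With array weights it was 2, and with 1 rat left out it was 0 to 2. At an unadjusted p up to 0.01 it was 0 to 1 with 1 rat left out, the 1 without young rat 4. The median of -0.036 was -0.11 with median centring, and -0.049 to 0.017 with 1 rat left out. Median centring lowered the estimates of all genes, and 37.8% of all genes tested then had the higher mean in aged rats, against 56.9% as reported. Shares of all genes tested at these unadjusted p-values are not given for the alternatives, so the counts are not a result about the members. The cause of these changes was not tested.

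For 23 named genes under 26 alternatives, 15 estimates turned their sign and 583 did not. Psmb5 had 0.0081 with quantile normalization, 0.081 with the mean of probe sets, 0.00025 with array weights, 0.030 within the lower series, 0.013 without aged rat 5, 0.042 without aged rat 6, 0.021 without young rat 3 and 0.0050 without aged rats 2 and 6. Psme3ip1 had -0.029 with median centring and -0.083 within the higher series, and Psmf1 had -0.029 and -0.060. Within the higher series Psmb10 had 0.061 and Psmc3ip 0.18, and Psmb7 had 0.016 without aged rat 6. With 1 rat left out Psmb5 ranged from -0.053 to 0.042 and Psmb7 from -0.10 to 0.016.

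Rats of the 2 groups share subject numbers, and the deviations of same-numbered rats correlated at -0.040 to 0.16, with 4 of 6 pairs over 0.1, and 5 of 6 aged rats correlated best with their own number, a hint of a pairing that no label states. Except for number 4, same-numbered rats also share a series of sample codes, and the part of that series was not tested. Numbers were to be taken as pairs only where all correlations passed 0.1, so the unblocked fit was kept. With the number as a replicate block, 0 members passed the test, and 3 were lower and 1 was higher at an unadjusted p up to 0.05. Psmd11 had an unadjusted p of 0.0584 with the block and 0.0425 without it (limma), Psmd5 0.0483 and 0.0404, and Psmd1 0.0458 and 0.0697. With the block 2 of all genes passed, against 7 without the block.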
